A study of Mus musculus with 24 samples.

Results

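The 37 genes described here are imprinted genes of the mouse, chosen by name from the known imprinted clusters and single imprinted loci, and found as the rows of the count files that carry their symbols. They are 37 of the 23420 gene symbols counted. Imprinted genes are expressed mainly or only from the copy inherited from one parent, because DNA methylation placed in the egg or the sperm at a control region marks one copy and is kept through cell divisions by DNMT1, its partner UHRF1 and zinc finger proteins such as ZFP57. TET enzymes oxidise that methyl mark, and TDG excises some of the oxidised bases. The counts are summed over both parental copies, and the mice were of 1 inbred strain, so a level says nothing about which copy was read.

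RNA was measured by polyA+ sequencing in 24 libraries from C57BL/6 mice, of 10 groups. 8 libraries came from Th2 cells, which are helper T cells driven towards the type 2 fate with IL-4 from naive CD4+ T cells of spleen and lymph nodes, in wild type (WT) and Tdg-iKO mice with 4 libraries each. 16 libraries came from bone marrow-derived macrophages (BMDMs), at 0 h or 6 h of KLA, a lipid that activates Toll-like receptor 4, with 2 libraries in each group. The BMDMs came from a Tdg cohort (WT and Tdg-iKO) and a Tet cohort (WT and TET-iTKO), each with its own WT. Tdg-iKO mice carried floxed Tdg and TET-iTKO mice floxed Tet1, Tet2 and Tet3. The deletion was induced in young adult animals with tamoxifen through CreERT2 inserted at the Ndor1 locus, control mice being given tamoxifen too, and the mice carried a Rosa26 reporter allele (EYFP for TET-iTKO, H2B-EGFP/GPI-mCherry for Tdg-iKO). No Th2 library of TET-iTKO cells was analysed here. BMDMs were grown in L929-conditioned medium with added M-CSF, and no sort by reporter is given for them. The naive T cells were sorted, for the reporter as well where it was carried. The labels do not say that the replicates came from separate animals, so p-values measure the spread between these samples, which may be technical.

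Assigned counts ran from 4982950 to 26657729 per library, with a median of 14853861. Replicates 3 and 4 of each Th2 group differed by little more than sampling noise (mean chi-square per gene 1.34 and 1.51, against 21.3 to 218 for the other Th2 pairs), and were summed, so each Th2 group counted as 3 samples and the series as 22. WT BMDM 0 h replicate 2 of the Tdg cohort stood apart, with the lowest total and 46.6% of its read pairs unassigned. In the 0 h comparison of that cohort, the fold change of a gene correlated with its exon length across 8829 genes (Spearman's rho 0.523). Tdg-iKO Th2 replicate 1 had 4277 counts of Y-linked genes and 16 of Xist, while WT BMDM replicate 1 of the Tet cohort had 0 of both at 0 h and at 6 h. The deletions could not be checked from these counts, which are given per gene and not for the exons that are cut out. The paper gives high deletion for Tdg and each Tet gene in Th2 cells, from qRT-PCR on those exons. In Tdg-iKO Th2 cells and BMDMs it also reports a build-up of the oxidised bases that TDG excises. Tdg was counted at 0 to 9.40 normalised counts in every sample, WT included, a level at which the deletion cannot be read. Why the WT counts were so low was not tested. Tet2 and Tet3 were not lower in TET-iTKO BMDMs at 0 h, where Tet2 stood at 749 and 712 against 513 and 612 in WT. Ndor1, the locus that holds CreERT2, was lower in the knockout groups of both cohorts, for example 253 and 234 in TET-iTKO against 372 and 426 in WT at 0 h. Macrophage markers were at a summed level of 28.2 to 55.5 in WT Th2 cells, where T cell markers summed to 19610 to 25850. In WT BMDMs of the Tdg cohort T cell markers summed to 119 to 188 at 0 h and 114 to 136 at 6 h. For the Tet cohort's WT BMDMs the sums were 242 to 379.6 and 184 to 336. Most of each BMDM sum was Cd4, which alone stood at 117 and 188 (Tdg cohort, 0 h) or 239 and 376 (Tet cohort, 0 h). Cd3e, Gata3 and Il4 were at 0 in these 0 h samples. Cd3g reached at most 0.911 there and Lck at most 3.96.

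Of the 37 genes, 20 were expressed, meaning 10 or more counts in 2 or more libraries. That is 54.05% of the list, beside 55.43% of all symbols (12981 of 23420). A further 9 were counted but fell below that minimum (H19, Igf2, Phlda2, Ndn, Mkrn3, Peg3, Nap1l5, Nnat and Slc38a4), and 8 had 0 counts in all 24 libraries (Meg3, Dlk1, Rian, Mirg, Snrpn, Magel2, Usp29 and Zim1). A count of 0 allows up to 3 counts, which is 0.113 to 0.602 CPM (counts scaled to a common library total) depending on the library, as counting error only. Expression by the same minimum within a cell type was found for 18 genes in Th2 cells, 15 in BMDMs at 0 h and 16 in BMDMs at 6 h. In total 13 of the 37 were at 0 in all 16 BMDM libraries, and 5 of these 13 had counts in Th2 cells.

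The clusters differed in how many of their genes were counted. The Igf2-H19 and Kcnq1ot1 clusters of distal chromosome 7 had 6 of 9 genes expressed (Kcnq1ot1, Cdkn1c, Slc22a18, Ascl2, Cd81 and Tssc4). The Dlk1-Meg3 cluster, with the paternally expressed Notch ligand Dlk1 and the maternally expressed non-coding RNAs Meg3, Rian and Mirg, had 0 of 4. The Snrpn-Ube3a cluster had 1 of 5, the ubiquitin ligase Ube3a, which is imprinted in neurons and read from both copies in most other cells. Snrpn was at 0 in every library, and so was Snurf, which shares exons with it, and reads that fall in exons of both genes are assigned to neither by the counter. The Peg3 cluster had 0 of 3, the Peg10-Sgce pair 2 of 2, and the single loci 11 of 14.

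The 5′ flanks of 3 genes are printed here: Rasgrf1, Igf2r and Mest. Rasgrf1 and Igf2r were the genes called between TET-iTKO and WT BMDMs, Igf2r at 0 h only and in 5 of 9 alternative analyses. Mest was counted in Th2 cells and at 0 in every BMDM library. Each is the 250 bases before the start of a RefSeq transcript in GRCm38.p6, written 5′ to 3′ on the strand of the gene. Capitals mark CpG dinucleotides, the sites of DNA methylation, in Rasgrf1 (chr9:89909525-89909774, plus strand) and Igf2r (chr17:12769707-12769956, minus strand). In Mest (chr6:30737803-30738052, plus strand) capitals mark matches on the reverse strand to TGCCGC, the methylated hexamer bound by ZFP57.
Rasgrf1: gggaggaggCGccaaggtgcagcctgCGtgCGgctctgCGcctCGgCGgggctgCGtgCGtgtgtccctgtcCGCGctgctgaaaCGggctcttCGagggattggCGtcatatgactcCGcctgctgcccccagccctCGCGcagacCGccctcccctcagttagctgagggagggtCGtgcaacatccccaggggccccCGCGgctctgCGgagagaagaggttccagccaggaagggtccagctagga
Igf2r: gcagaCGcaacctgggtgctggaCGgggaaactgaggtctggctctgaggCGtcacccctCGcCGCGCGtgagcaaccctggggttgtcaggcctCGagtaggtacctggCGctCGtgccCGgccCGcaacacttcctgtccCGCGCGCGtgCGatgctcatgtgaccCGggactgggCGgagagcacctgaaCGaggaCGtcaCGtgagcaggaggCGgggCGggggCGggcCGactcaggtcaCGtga
Mest: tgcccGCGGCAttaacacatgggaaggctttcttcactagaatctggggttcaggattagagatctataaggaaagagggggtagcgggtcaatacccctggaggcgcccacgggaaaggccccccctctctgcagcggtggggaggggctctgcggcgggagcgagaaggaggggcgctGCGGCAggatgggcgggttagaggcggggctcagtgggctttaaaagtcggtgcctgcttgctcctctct
The Rasgrf1 flank holds 21 CpGs (observed over expected 0.703) and the Igf2r flank 27 (0.913), numbers that 16.3% and 8.56% of all RefSeq promoters of the same kind reach. The Mest flank holds 14 (0.618, reached by 29.4%) and 2 hexamers on the reverse strand, with 0 on the forward strand. The 250 bases before the start were searched on both strands. Of the 46 promoter entries of 31 of the genes, 6 held the hexamer (13%), among them overlapping entries of Mest. Of all genes, 2850 of 32851 entries held it (8.68%). Median CpG counts were 10 and 6. A match is a description of letters and not of binding. No entry was found for H19, Cdkn1c, Peg10, Sgce, Impact and Trappc9.

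Levels of the expressed genes differed by orders of magnitude. All levels below are DESeq2 normalised counts, which are counts divided by a size factor per sample, and levels of different genes are compared only per kb of exon. Gnas, which encodes the stimulatory G protein alpha subunit and several imprinted transcripts, was the highest in WT Th2 cells at 862 ± 123 normalised counts per kb (SD, n = 3), above 93.4% of 12344 expressed genes with a length. Cd81, a tetraspanin of the cell surface, followed at 446 ± 92.7, and H13, the signal peptide peptidase, at 321 ± 61.3. In WT BMDMs of the Tet cohort at 0 h, Igf2r, the receptor that carries mannose-6-phosphate-tagged enzymes to lysosomes and clears IGF2, was first at 795 ± 50.5 per kb (n = 2), above 92.4% of expressed genes. Gnas came next at 457 ± 4.59, followed by Impact, a regulator of the kinase GCN2, at 387 ± 45.2. The plot of levels by sample shows that 12 genes reached a group mean of 50 normalised counts.

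**Figure D1:**
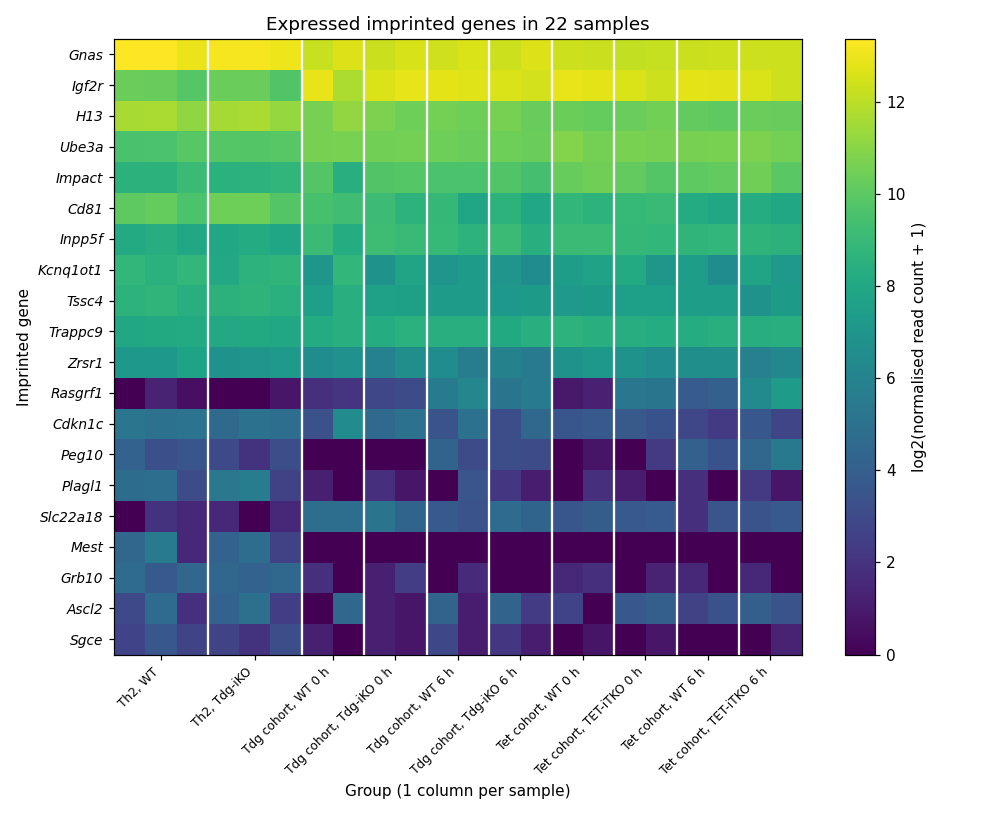
Levels of the 20 expressed imprinted genes (rows) in the 22 samples (columns, by group), as log2 of the DESeq2 normalised count plus 1. Igf2r is brighter, which means higher, in the BMDM samples than in the Th2 samples, and Mest is at 0 in all 16 BMDM samples.

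The first comparison was between cell types, WT Th2 cells (n = 3) and WT BMDMs at 0 h of both cohorts (n = 4). 14 of the 25 genes tested passed an adjusted p of 0.05 by the DESeq2 Wald test, 9 higher in Th2 cells and 5 lower. Of all genes tested, 54.8% passed, 29% higher and 25.8% lower, so the share of the imprinted genes (56%) was near the background. Their median log2 fold change was 0.84, beside 0.13 for all genes tested, and 0.83 with the 8 genes of 3 counts or fewer in a cell type set to their count ratio or bound. In 15 of the 25 genes tested the samples of the cell types did not overlap, and the share over all genes was not counted. The cells differed in type, culture and library set together, and these cannot be told apart. Levels of the 4 BMDM samples are listed with the Tdg cohort first. In bulk samples, fewer cells of a type and less RNA per cell cannot be told apart either.

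Igf2r had the lowest adjusted p of the genes. It stood at 1305, 1241 and 924 normalised counts in the 3 WT Th2 samples, 7697 and 3346 in the WT BMDMs of the Tdg cohort and 7844 and 7169.9 in those of the Tet cohort. Every BMDM sample was above every Th2 sample (log2 fold change -2.50, SE 0.343, adjusted p = 2.24e-12). Airn, the non-coding RNA transcribed antisense to Igf2r from the paternal copy, was also lower in Th2 cells, at 6.71, 4.30 and 3.02 against 25.9, 111, 55.6 and 80.5 (log2 fold change -3.96, adjusted p = 1.44e-08). Igf2r lies at chr17:12875272-12962530 on the minus strand of mm9, and without a stated strand setting for the counting, reads of an antisense pair may be shared.

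Ube3a was lower in Th2 cells at 736, 778 and 944, against 1577, 1622, 1928 and 1529 in BMDMs (log2 fold change -1.02, SE 0.204, adjusted p = 2.20e-06), with no overlap. Slc22a18, a transporter-like membrane protein of the Kcnq1ot1 cluster, stood at 0, 2.86 and 1.86 in Th2 cells and at 27.2, 27.8, 10.9 and 14.5 in BMDMs (log2 fold change -3.57, SE 0.890, adjusted p = 1.83e-04). Where they are imprinted, both genes are read from the maternal copy. Impact (385, 388 and 548 against 901, 348, 1217 and 1437) and Inpp5f, a phosphoinositide phosphatase (289.96, 322 and 258 against 556, 308, 552 and 556), were lower with log2 fold changes of -1.15 and -0.78 (adjusted p = 0.0201 and 0.0134). In Impact the lowest BMDM sample, the one that stood apart, was below every Th2 sample. In Inpp5f that sample lay between Th2 samples.

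9 genes were higher in Th2 cells. Gnas stood at 10592, 10272 and 8069 in Th2 cells, 4940.3 and 6594 in BMDMs of the Tdg cohort and 5146 and 5073 in those of the Tet cohort, with no overlap (log2 fold change 0.82, SE 0.214, adjusted p = 3.37e-04). The antisense RNA Nespas, whose exons overlap those of Gnas by 988 bases on the opposite strand, was at 28.2, 32.9 and 19.8 in Th2 cells and at 0 in all 4 WT BMDM 0 h samples (adjusted p = 2.62e-07). H13 was at 3171, 3259 and 2259.6 against 1592, 2316, 1310.4 and 1195 (log2 fold change 0.85, adjusted p = 0.0119), and Mcts2, a gene in an intron of H13, was higher too (2.24, adjusted p = 2.02e-04). Cd81 (1074, 1185 and 778 against 702, 619.9, 454 and 397) and its neighbour Tssc4 (400.04, 423 and 344 against 185, 327, 151 and 154) had log2 fold changes of 0.89 and 0.95 (adjusted p = 0.00696 and 0.0113).

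The other 5 were low in Th2 cells and at 4 counts or fewer per sample in WT BMDMs at 0 h. Mest, a paternally expressed member of the alpha/beta hydrolase family, stood at 20.1, 42.97 and 1.86 in WT Th2 cells and at 0 in every BMDM sample, which is at least 11.4-fold higher in Th2 cells against a floor of 3 counts over the 4 WT BMDM 0 h samples. Grb10, an adaptor that dampens insulin receptor signalling, was at 24.2, 12.9 and 20.2 against 2.59, 0, 1.82 and 2.64, a count ratio of 9.20, 95% exact counting interval 4.51 to 21.8. Plagl1, a zinc finger transcription factor, was at 25.5, 27.2 and 7.21 against 1.29, 0, 0 and 2.64, a ratio of 8.91, 95% exact counting interval 3.64 to 28.3. Samples did not overlap in any of the 3. The retrotransposon-derived Peg10 and its divergent neighbour Sgce, which encodes epsilon-sarcoglycan, are both paternally expressed. Peg10 stood at 17.5, 8.59 and 10.9 against 0, 0, 0 and 0.660, a ratio of 42.6, 95% exact counting interval 7.39 to 1708, and Sgce at 5.37, 11.5 and 5.81 against 1.29, 0, 0 and 0.660, a ratio of 11.9, 95% exact counting interval 3.08 to 102. The intervals cover counting error only. Mest, Plagl1 and the bHLH factor Ascl2 were lower in the summed Th2 sample than in replicates 1 and 2 of both genotypes, at 1.86 and 5.09 for Mest. H19 showed the same split, with 5 and 2 counts in WT replicates 1 and 2, 9 and 4 in Tdg-iKO, and 0 in every other library. Of the 7 stroma markers, Dcn, Col3a1, Pdgfra and Lum (4) were at 0 in every Th2 library. Col1a1 and Pdgfrb were higher in WT Th2 cells than in WT BMDMs at 0 h, at 11.5 to 36.7 and 19.8 to 41.6 against 0 to 5.28 and 0 to 1.32, and Dcn and Col1a2 were lower. The part of these markers in the results was not tested.

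Missing the threshold were Igf2 (adjusted p = 0.0728), at 18 counts in WT Th2 cells and 0 in WT BMDMs, and the antisense RNA Kcnq1ot1 (adjusted p = 0.0812). Kcnq1ot1 stood at 462, 374 and 454 in Th2 cells and at 136, 453, 175 and 208 in BMDMs. Trappc9, a vesicle trafficking gene, was at 259, 279 and 288 in Th2 cells and at 300.4, 339, 394 and 331 in BMDMs (log2 fold change -0.31, SE 0.209). The splicing factor-related Zrsr1 was at 138, 140.4 and 214 in Th2 cells and at 89.4, 108, 115 and 139 in BMDMs (log2 fold change 0.54, SE 0.315). Among 12 counted hosts, partners and antisense genes of the list, 5 of 10 tested passed, with Airn, Peg13 and Blcap lower and Nespas and Mcts2 higher in Th2 cells. Of 11 genes that keep imprints, 6 were higher in Th2 cells and 1 lower. The 2 lists thus had 50% and 63.6% of tested genes called, near the 54.8% of all genes tested. The lower one was Dppa3, at 0 in all 3 WT Th2 samples and at 47.9, 157, 11.8 and 9.90 in BMDMs.

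Of the 14 calls between cell types, 7 were kept in every alternative analysis that tested them: Gnas, Grb10, Igf2r, Slc22a18, Ube3a, Peg10 and Plagl1. Cd81 was kept in 11 of 13, Mest in 11 of 12, H13, Impact and Tssc4 in 8 of 13 each, Inpp5f in 7 of 13 and Sgce in 5 of 11. Mest missed the threshold without WT Th2 replicate 2 (adjusted p = 0.0510). Without WT Th2 replicate 1 or 2, or WT replicate 1 or 2 of the Tet cohort, 8 or 9 genes passed.

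**Figure D2:**
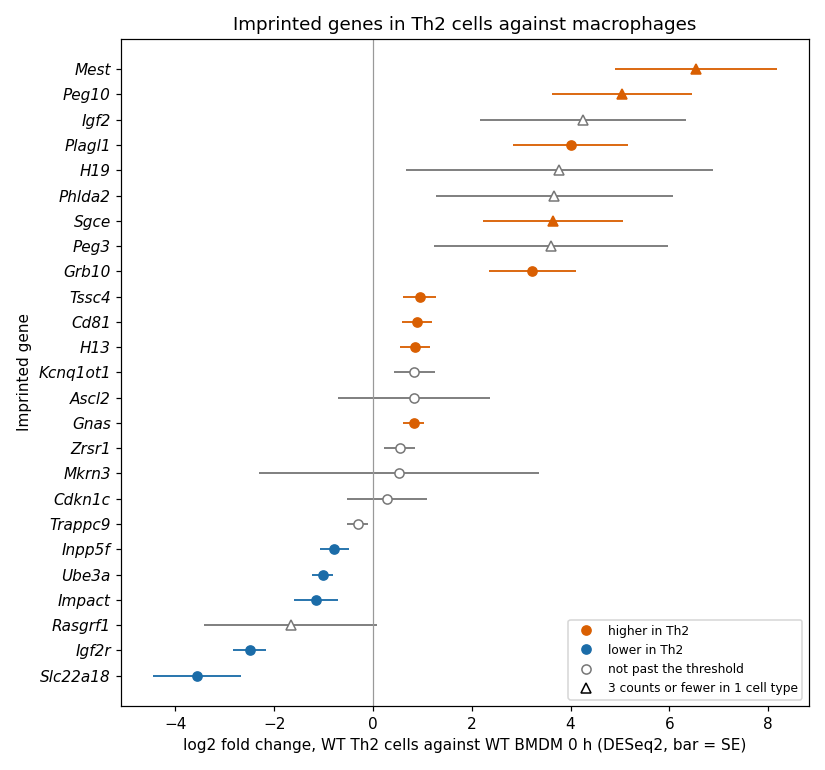
Log2 fold change (x axis, WT Th2 over WT BMDM 0 h, bars are ± SE) of the 25 imprinted genes tested. Orange points are higher in Th2 cells and blue points lower at an adjusted p of 0.05, white points did not pass, and triangles mark genes with 3 counts or fewer in 1 cell type. Igf2r, at -2.50, lies far left and Mest, at 6.54, far right.

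Levels of the well expressed genes within BMDMs are given here as ranges over genotype and time. Over the 16 samples Gnas ran from 4495 to 6594, Ube3a from 1289.7 to 1928 and H13 from 1078 to 2316. Trappc9 ran from 282 to 394, Inpp5f from 308 to 586, Impact from 348 to 1437 and Igf2r from 3346 to 7844. The antisense RNA Kcnq1ot1 ran from 90.0 to 453, Tssc4 from 111 to 327, Zrsr1 from 47.1 to 139, and Cd81 from 241 to 702. Cdkn1c, a cyclin-dependent kinase inhibitor read from the maternal copy, ran from 3.79 to 86.4 in BMDMs, and its highest value and that of Kcnq1ot1 were both in the WT sample that stood apart. Of the 9 genes under the minimum, Mkrn3 was counted in 16 libraries and Igf2 in 10, and the highest count in a library was 9, for H19.

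Deletion of Tdg was compared with WT in Th2 cells, in BMDMs at 0 h and in BMDMs at 6 h. None of the imprinted genes passed the threshold in any of the 3 comparisons by the DESeq2 Wald test, with 27, 24 and 24 genes tested. Of all genes tested, 0% passed in each. At an unadjusted p under 0.05 the imprinted genes numbered 0 in each, and edgeR's quasi-likelihood test also called 0. Over all genes only 77, 265 and 34 were under that p, beside 15826, 15026 and 15026 tested. These shares are far below 0.05, so the 0 says little about the imprinted genes. With a block for replicate number in the DESeq2 model, 541, 612 and 90 genes were under it. Among them were 1, 1 and 0 imprinted genes, and 0 imprinted genes passed the adjusted threshold. Over the 11 genes with a group mean of 50 or more other than Rasgrf1, log2 fold changes in Th2 cells ran from -0.32 (Zrsr1) to 0.26 (Cd81) with SEs of 0.168 to 0.292. In BMDMs at 0 h they ran from -0.80 (Kcnq1ot1) to 0.49 (Impact), with SEs of 0.235 to 0.601, and at 6 h from -0.43 (Kcnq1ot1) to 0.04 (Inpp5f), with SEs of 0.235 to 0.608. The SEs set the size that could be seen, and the widest ones were those of the 2 BMDM comparisons. Both BMDM comparisons came from 1 fit, so the spread used at 6 h included the WT 0 h sample that stood apart. SEs of the TET-iTKO comparisons, given below, ran lower.

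In Th2 cells Igf2r stood at 1329, 1288 and 858 in Tdg-iKO and 1305, 1241 and 924 in WT, groups that overlapped. Gnas at 9387, 9436 and 8504 in Tdg-iKO and 10592, 10272 and 8069 in WT, and Mest at 17.3, 26.6 and 5.09 against 20.1, 42.97 and 1.86, overlapped as well. Peg10 stood at 6.72, 2.95 and 8.22 in Tdg-iKO against 17.5, 8.59 and 10.9 in WT, without overlap, and did not pass (adjusted p = 1.00). Igf2r in BMDMs at 0 h was 6534 and 7379.8 in Tdg-iKO and 7697 and 3346 in WT. At 6 h Igf2r was 6245 and 5649 in Tdg-iKO and 7338 and 6627 in WT, without overlap, with a log2 fold change of -0.23 (SE 0.389, adjusted p = 1.00). Impact at 0 h was 861 and 912 in Tdg-iKO and 901 and 348 in WT. In both genes the lower WT value at 0 h was that of the sample that stood apart. Without WT replicate 1, so that this sample was the only WT one, Igf2r and Impact passed as higher in Tdg-iKO, among 1177 genes called (11.3%). Without replicate 2, 0 imprinted genes passed.

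Rasgrf1, a guanine nucleotide exchange factor for RAS that is paternally expressed in brain, was the gene that differed most between TET-iTKO and WT BMDMs. At 0 h it was at 0.911 and 1.32 normalised counts in the 2 WT samples of the Tet cohort (3 counts in all) and at 37.5 and 35.8 in TET-iTKO (82 counts). The groups did not overlap, and the ratio of the summed levels was 31.8, 95% exact counting interval 10.5 to 157. At 6 h of KLA it was at 13.3 and 16.1 in WT and 82.1 and 159 in TET-iTKO, again without overlap, a ratio of 8.52, 95% exact counting interval 5.91 to 12.7. The DESeq2 log2 fold changes were 5.001 (SE 0.955, adjusted p = 1.09e-05) and 3.03 (SE 0.511, adjusted p = 4.55e-07). Each passed in all 9 of its alternative analyses, with adjusted p-values up to 0.0216 at 0 h and 0.0281 at 6 h. Rasgrf1 lies at chr9:89804613-89921814 on the plus strand of mm9, and its 250-base flank is printed above.

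Igf2r was the other gene that passed at 0 h, with lower levels in TET-iTKO. It stood at 6217 and 5159 in TET-iTKO and at 7844 and 7169.9 in WT, and at 6 h at 6281 and 5137 in TET-iTKO against 7331 and 6881 in WT. Neither pair of groups overlapped, which was common with 2 samples a group. Of the 16 imprinted genes tested, 10 did not overlap at 0 h and 9 at 6 h. The share over all genes was not counted. At both times the gap between the nearest samples of the groups was smaller than that between the 2 TET-iTKO samples. The log2 fold change was -0.40 at 0 h (SE 0.130, adjusted p = 0.0330) and -0.32 at 6 h (SE 0.130, adjusted p = 0.137). The 0 h call was lost with edgeR (adjusted p = 0.106) and without WT replicate 1 (0.462), WT replicate 2 (0.116) or TET-iTKO replicate 2 (0.735), and over the 9 alternatives the adjusted p ran from 0.00204 to 0.735. Airn stood at 139 and 74.8 in TET-iTKO and 55.6 and 80.5 in WT at 0 h, with overlap.

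With Rasgrf1 and Igf2r, 2 of the 16 genes tested passed at 0 h, 1 higher and 1 lower, and 1 of 16 at 6 h, which was Rasgrf1. Of all genes tested, 7.5% passed at 0 h (4.38% higher and 3.12% lower) and 6.58% at 6 h (3.24% higher and 3.34% lower), so the counts of the list were near those shares. The median log2 fold changes of the tested genes were -0.04 and 0.08, beside 0.01 and -0.00 over all genes. Over the 11 genes with a group mean of 50 or more other than Rasgrf1, the values ran from -0.40 (Impact) to 0.28 (Tssc4) at 0 h and -0.61 (Zrsr1) to 0.50 (Kcnq1ot1) at 6 h, with SEs of 0.0945 to 0.345 and 0.0945 to 0.349. 2 further genes were under an unadjusted p of 0.05 at 0 h. They were Ascl2, at 5.47 and 0 in WT and 11.5 and 15.6 in TET-iTKO (adjusted p = 0.229), and Impact, at 1217 and 1437 in WT and 1122 and 886 in TET-iTKO (adjusted p = 0.185). The remaining genes, Mest and H19 among them, gave no call, and both were at 0 in all BMDMs.

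Some markers of other cells differed in the TET comparison. The summed level of 7 stroma markers was 156 to 197 in WT and 469.8 to 517 in TET-iTKO at 0 h, and 311 to 328 and 948 to 1147 at 6 h. Most of these sums was Dcn, at 177 and 139 in WT and 401 and 499 in TET-iTKO at 0 h. Col3a1, Pdgfra and Lum were at 9.37 or less in every sample of both genotypes. Dcn passed at both times and Col1a1 at 6 h. At 0 h, 3 B cell markers summed to 18.5 to 21.9 in WT and 45.8 to 224 in TET-iTKO, and at 6 h to 18.6 to 25.6 and 44.9 to 223, with Ms4a1 higher at both times and Cd79a at 0 h. 5 granulocyte and progenitor markers summed at 0 h to 171 to 413 and 277 to 1016, ranges that overlapped, and at 6 h to 127 to 207 and 254 to 724, which did not. Of these, Cd34 was higher in TET-iTKO at both times and Prtn3 at 6 h. Of 5 macrophage markers counted, Cd68, Lyz2 and Mrc1 were lower in TET-iTKO at both times and Itgam higher at 0 h. Their part in the Rasgrf1 and Igf2r results was not tested. Of the genes that keep imprints, 1 of 10 tested (10%) passed at each time, beside 7.5% and 6.58% of all genes. It was Uhrf1, at 101 and 214 in TET-iTKO and 64.7 and 59.4 in WT at 0 h (log2 fold change 1.35, adjusted p = 0.0136) and 78.2 and 157 against 39.8 and 37.9 at 6 h (1.59, adjusted p = 0.00355). In WT BMDMs of the Tdg cohort Uhrf1 stood at 645 and 170 at 0 h and 227 and 64.0 at 6 h. No TET-iTKO sample was above the highest of these at the same time. None of the hosts, partners and antisense genes passed in any knockout comparison.

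**Figure D3:**
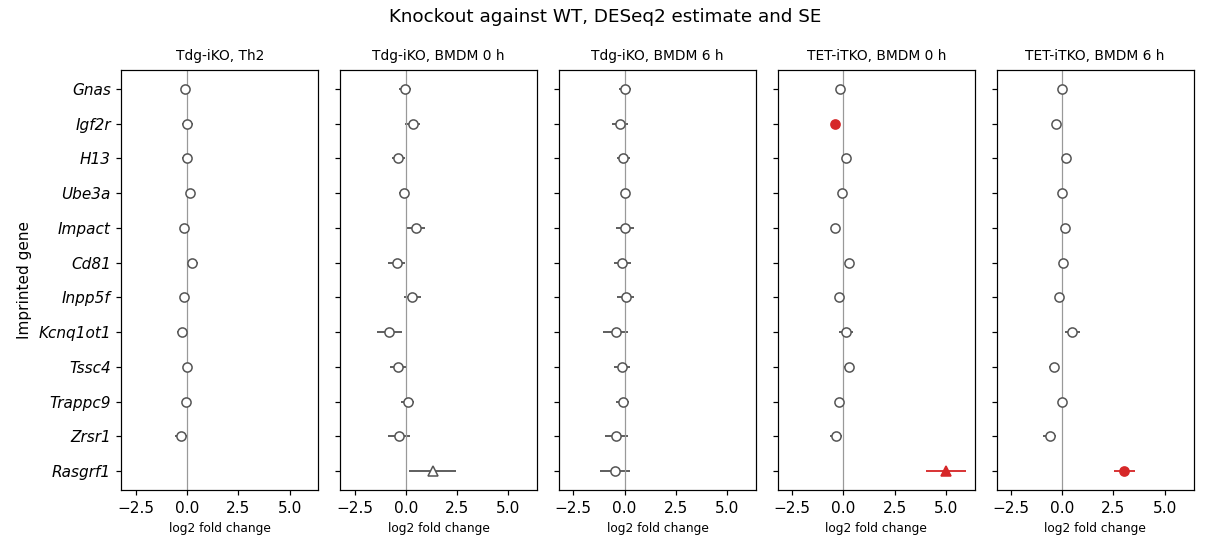
DESeq2 log2 fold changes (x axis, bars are ± SE) of the 12 imprinted genes with a group mean of 50 or more in the 5 knockout comparisons, drawn where the gene was tested. Red filled points passed an adjusted p of 0.05 and triangles mark genes with 3 counts or fewer in a group. Rasgrf1 at 0 h and 6 h and Igf2r at 0 h in TET-iTKO are red, and no point of the Tdg-iKO panels is.

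The 2 knockouts were compared directly by the difference of their effects, each against its own WT. At 6 h, 1 of 20 genes passed, Rasgrf1, with a difference of 3.51 (SE 0.735, adjusted p = 0.00455), where 0.0765% of all genes passed (0.0459% higher and 0.0306% lower). Its levels in the Tdg cohort at 6 h were 43.9 and 71.4 in WT and 36.2 and 47.1 in Tdg-iKO, groups that overlapped. That call was kept in 6 of 12 alternative analyses and lost with edgeR (adjusted p = 0.194) and without WT replicate 1 or 2 or TET-iTKO replicate 2 of the Tet cohort, or WT replicate 2 or Tdg-iKO replicate 1 of the Tdg cohort (adjusted p up to 0.704, the lowest over all alternatives being 4.81e-04). At 6 h WT Rasgrf1 was at 43.9 and 71.4 for the Tdg cohort, against 13.3 and 16.1 for the Tet cohort, and the TET-iTKO samples lay above the WT samples of both cohorts. At 0 h, 0 of 14 genes passed by DESeq2, 2 were under an unadjusted p of 0.05 (Rasgrf1 and Ascl2), edgeR called 0, and 0.355% of all genes passed. The Rasgrf1 difference at 0 h was 3.69 (SE 1.41, adjusted p = 0.514). In the Tdg cohort at 0 h Rasgrf1 stood at 2.59 and 3.08 in WT and 6.25 and 7.35 in Tdg-iKO, from 3 and 15 counts, a ratio of 2.54, 95% exact counting interval 0.718 to 13.7. These samples did not overlap, with Tdg-iKO the higher as in TET-iTKO, and Rasgrf1 did not pass there.

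KLA was compared at 6 h and 0 h in the WT BMDMs of each cohort. Rasgrf1 rose in both. It went from 2.59 and 3.08 to 43.9 and 71.4 in the Tdg cohort (ratio 22.1, 95% exact counting interval 7.34 to 109, DESeq2 adjusted p = 0.00146) and from 0.911 and 1.32 to 13.3 and 16.1 in the Tet cohort (ratio 12.8, 95% exact counting interval 3.99 to 65.1, DESeq2 adjusted p = 0.00111). The times overlapped in neither cohort. Of the 16 imprinted genes tested, 7 did not overlap in the Tdg cohort and 11 in the Tet cohort. The call was lost in the Tdg cohort without WT 6 h replicate 2 (adjusted p = 0.0992) or WT 0 h replicate 1 (0.0515), and in the Tet cohort without WT 0 h replicate 2 (0.0599). Over 9 alternatives each, adjusted p-values ran from 0.00129 to 0.0992 and from 9.40e-04 to 0.0599. It was the 1 gene of 16 tested that passed in the Tdg cohort, where 8.6% of all genes passed (5.29% higher and 3.32% lower), and 1 of 3 in the Tet cohort, where 24.1% passed (13.1% higher and 11.1% lower). The list had 6.25% and 18.75%, of 16 genes tested in each cohort, so its counts were near those shares.

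Peg10 and Cd81 were the other 2 in the Tet cohort. Peg10 went from 0 and 0.660 to 15.9 and 9.48 (1 and 28 counts, ratio 33.5, 95% exact counting interval 5.53 to 1369, adjusted p = 0.0113). WT samples of the Tdg cohort had 0 counts of it at 0 h and stood at 17.9 and 7.46 at 6 h, which is at least 4.23-fold higher against a floor of 3 counts over the group, and did not pass (adjusted p = 0.166). Peg10 was above 0 in all 8 BMDM samples at 6 h and in 2 of the 8 at 0 h, at 0 and 3.89 in TET-iTKO 0 h and 20.0 and 40.8 at 6 h. Its neighbour Sgce was at 6.50 and 1.07 in WT of the Tdg cohort at 6 h and at 0 in both WT samples of the Tet cohort. Cd81 was lower at 6 h, 454 and 397 to 295 and 254 (log2 fold change -0.62, SE 0.184, adjusted p = 0.00439), and stood at 702 and 619.9 at 0 h and 473 and 241 at 6 h in the Tdg cohort, where it did not pass (adjusted p = 0.202). Without WT 0 h replicate 1 of the Tet cohort neither Peg10 (adjusted p = 0.0945) nor Cd81 (0.147) passed there. Without 6 h replicate 1 Peg10 did not (0.0626), and without 6 h replicate 2 Cd81 did not (0.114). Over 9 alternatives each, adjusted p-values ran from 0.00943 to 0.0945 for Peg10 and from 0.00340 to 0.147 for Cd81. The stroma markers Dcn and Pdgfrb were higher at 6 h in these WT samples, and Pdgfrb in those of the Tdg cohort. The Tet cohort had a summed level of the 7 markers of 156 to 197 at 0 h and 311 to 328 at 6 h, the Tdg cohort 25.9 to 182 and 136 to 488. Their part in the KLA results was not tested.

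Igf2r and Gnas did not pass in either cohort, with log2 fold changes of -0.07 (SE 0.130) and 0.03 (SE 0.0944) in the Tet cohort. The median log2 fold changes of the tested genes were -0.22 in the Tdg and -0.16 in the Tet cohort, beside -0.03 and -0.01 over all genes. Of the genes that keep imprints, Dnmt1, the maintenance methyltransferase, was lower at 6 h in both cohorts (-1.08, adjusted p = 0.00599, and -0.87, adjusted p = 3.04e-12). In the Tet cohort 2 more of them passed, Setdb1 as lower (-0.42, adjusted p = 0.00706) and Zfp445 as higher (0.29, adjusted p = 0.0379). Of the hosts and partners, Blcap and Casd1 were higher there (0.45, adjusted p = 0.00855 for Casd1, and for Blcap 0.49, adjusted p = 0.00215). In the Tet cohort the keepers had 3 of 10 tested called (30%) and the hosts and partners 2 of 8 (25%), near the 24.1% of all genes. In the Tdg cohort they had 1 of 10 (10%) and 0 of 9, beside 8.6% of all genes.

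The response to KLA gave no call between genotypes for any imprinted gene. 0 of 24 genes passed for Tdg-iKO minus WT and 0 of 16 for TET-iTKO minus WT by the DESeq2 Wald test, where 0% and 0.426% of all genes passed, the latter being 0.0492% higher and 0.377% lower. At an unadjusted p under 0.05 the numbers were 0 and 1 (Impact), and edgeR called 0 in both. Over all genes 37 and 544 were under that p, beside 15026 and 12200 tested. For Rasgrf1 the TET-iTKO minus WT difference was -1.97 (SE 1.08, adjusted p = 1.00). Its level went in TET-iTKO from 37.5 and 35.8 to 82.1 and 159 and in WT from 0.911 and 1.32 to 13.3 and 16.1. The TET-iTKO samples at 0 h were above the WT samples of the same cohort at 6 h.

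**Figure D4:**
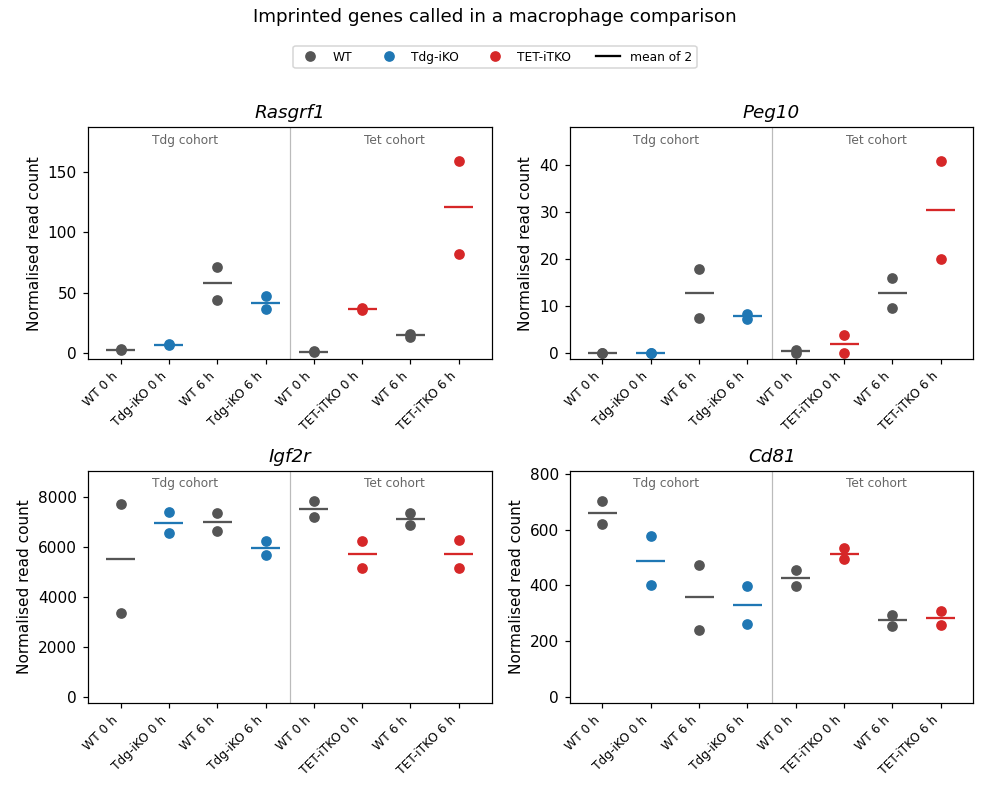
DESeq2 normalised counts of Rasgrf1, Peg10, Igf2r and Cd81 in the 8 BMDM groups, 1 point per sample with a line at the mean of the 2 samples. Rasgrf1 is highest in TET-iTKO at 6 h, and Peg10 is at or near 0 in all groups at 0 h.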

How the data were processed

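The authors aligned the reads to mm9 with HISAT2 and deposited counts per gene from HTSeq-count, as whole numbers; tool versions, annotation and strand setting are not given in the sources used here, except DESeq2 1.30.0 in the submitters' processing notes. HTSeq-count leaves read pairs that map to several places or genes unassigned, with 5 tallies per file, and 32.8% to 51.6% of pairs were unassigned per library. These tallies stayed out of library sizes and tests. Totals of 4982950 to 26657729 counts set the precision, and all samples were used.

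Genes were tested with DESeq2 1.42.0 (Wald test, median-of-ratios size factors, independent filtering, unshrunken fold changes, R 4.3.3), following the tool of the study, with Benjamini-Hochberg adjustment over all genes and a threshold of 0.05. One fit was made for the Tdg-cohort BMDMs, one for the Tet-cohort BMDMs, and one each for the Th2 cells, the comparison of the cohorts and the comparison of cell types. Alternatives were edgeR 4.0.16 (quasi-likelihood test, TMM), other count minimums, a replicate block and leaving out each sample. The code was tested on simulated data. Replicate numbers of the Th2 genotypes deviated together (r 0.475, 0.655 and 0.897), so the block served there as a pairing. The main tests held no pairing. With the Th2 pairing, 15 of 10188 genes (0.147%) and 0 of 12 imprinted genes passed by the DESeq2 Wald test. In BMDMs of the Tdg cohort the genotypes gave r 0.347 at 0 h and 0.731 at 6 h. The 37 genes, the marker lists and the lists of partners and imprint keepers were chosen with earlier results of these data known. Genes were described in full where they passed the threshold in any of 12 comparisons or had a group mean of 50 or more normalised counts. Promoter sequences are from RefSeq (GRCm38.p6), matched by symbol for 31 of the 37 genes. Exon lengths and coordinates are from GENCODE vM1 (NCBIM37, mm9), which has no length for Kcnq1ot1.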

Additional observations from a re-analysis of the deposited data

Results flagged for a closer look

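4 of the 17 expressed genes examined in the 4 WT BMDM samples at 0 h had 1 sample far from the other 3 by Dixon's gap test, where chance marks about 1 in 20 groups. 3 of the 4 were the same sample, WT replicate 2 of the Tdg cohort, the library of lowest depth. Igf2r was at 3346 normalised counts there, against 7169.9, 7697 and 7844 in the others. Inpp5f was at 308.4 against 552, 556 and 556, and Gnas at 6594 against 4940.3, 5073 and 5146. In WT replicate 2 of the Tet cohort, Peg10 was at 0.6601 (1 count) and at 0 in the other 3. A gene at 0 in all samples but 1 is always flagged by this test, so the Peg10 flag was fixed in advance. The flags of Igf2r, Inpp5f and Gnas come from 1 library and are not independent. The number of flags therefore cannot be set against the chance rate.

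The effect of the TET deletion on Rasgrf1 at 6 h differed from that of the Tdg deletion by 3.514 on the log2 scale in a test of the difference itself (DESeq2 adjusted p = 0.004553). It was kept in 6 of 12 alternatives, over which the adjusted p ran from 4.81e-04 to 0.704.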

How the results depend on the processing

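Of the 22 fold changes of called genes, recomputed 252 times in all, 0 changed direction and 47 of these values lost the threshold. The number of imprinted genes called changed by more than 1.5 times in the following cases, and the cause was not tested. With edgeR, 1 gene was called in TET-iTKO at 0 h (against 2), and 0 for the difference of TET and Tdg effects at 6 h (against 1). With the replicate block, 2 were called in TET-iTKO at 6 h (against 1, Igf2r being added) and 2 for KLA in the WT of the Tdg cohort (against 1, Cd81 being added), while the pairing changed no call in the Th2 cells (0). With BMDMs of the Tdg cohort alone, 8 genes differed between the cell types (against 14). With a minimum of 50 counts, 13 genes were expressed, against 20 at 10 counts and 22 at 5. Leaving out 1 sample at a time gave 0 to 2 calls in Tdg-iKO BMDMs at 0 h, 1 to 2 in TET-iTKO at 0 h and at 6 h, 0 to 4 for KLA in the WT of the Tdg cohort and 1 to 2 in that of the Tet cohort, 0 to 2 for the KLA response in Tdg-iKO minus WT, 0 to 6 and 0 to 1 for the difference of TET and Tdg effects at 0 h and 6 h, and 8 to 17 between cell types. The highest values of the Tdg-iKO comparison at 0 h, of KLA and its genotype difference in that cohort and of the difference of effects at 0 h came without its WT replicate 1 at 0 h, and 0 calls for KLA there without WT replicate 2 at 6 h. In TET-iTKO, 1 call came at 0 h without TET-iTKO replicate 2 or either WT replicate, and 2 at 6 h without TET-iTKO replicate 1. KLA in the WT of the Tet cohort gave 1 without WT replicate 1 at 0 h. Where that leaves 1 sample in a group, it is assumed to vary like the others. Low counts limit Peg10, Sgce, Mest, Plagl1 and Grb10.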
